A study of Mus musculus with 6 samples.

Results

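Some probe sets of the Affymetrix array used here read several zinc finger genes at once. A probe set is a group of short array probes whose signals are combined to 1 value, and the platform annotation lists for each the symbols of the genes it reads. The 40 probe sets described here have an entry with several symbols, at least 1 of which starts with Zfp (zinc finger protein). They are 40 of 35556 probe sets, and of the 1621 probe sets with several symbols. A pair of them held the same value on every array, so that 39 distinct features remained of 35065 in all. The entries hold 2 to 18 symbols each and 100 symbols in all, 57 of which start with Zfp. The rule that selects them reads only the annotation. Each is named by its probe set number and its whole entry, because its signal cannot be assigned to 1 of the genes listed.

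Mouse glioma cells whose growth depended on a mutant form of EGFR, the epidermal growth factor receptor, were placed under the skin of the flanks of Nu/Nu mice, which lack a thymus and so most T cells. The labels give 2 groups with 1 array per tumour: control gliomas 1, 2 and 4, and relapsed gliomas 1, 2 and 3, which regrew once the mutant receptor had been extinguished. Drinking water held doxycycline at 2 g/L for some of the mice, per the labels' protocols, but whether these carried the control or the relapsed tumours is not given there. Tumours were taken at 2 cm3. They give no age, no promoter for the receptor and no number of cell clones, and do not say whether the tumours came from separate mice, so the p-values measure only the spread between these samples. The comparison asks how tumours that regrew after loss of the driving receptor differ from control tumours.

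Most of the genes listed encode proteins with tandem C2H2 zinc fingers, which bind DNA. In many mouse members an N-terminal KRAB domain recruits the corepressor Trim28, and through it the histone methyltransferase Setdb1, to the bound site. A main task of these proteins is to silence endogenous retroviruses and other transposable elements. The genes lie in clusters of recent duplicates, which is where probes that match several of them are found.

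Linked by shared symbols, the 39 features formed 18 groups, each named below by 1 of its genes. For 16 of the 18 groups the genes placed by RefSeq (assembly GRCm38.p6) lay on 1 chromosome, and 98 of the 100 genes were matched there. That is not always a cluster. Only 1 protein-coding gene was placed in each of the Zfp640, Zfp783 and Zfp772 groups, and the Zfp526 and Zfp821 groups spanned 412 and 195 genes. The Zfp987 group (6 features, 16 symbols), the Zfp932 group (5 features, 6 symbols) and the Zfp931 group (3 features, 25 symbols) are the ones with the most called features. Promoters are shown for the groups that rose, for the Zfp442 group beside the called groups that share its sequence, and for the Zfp108 group, whose mean was lower in relapsed tumours. They were chosen for display after the values were seen. Each runs 5′ to 3′ over the 250 bases before the gene's start in RefSeq (GRCm38.p6). Capitals mark the letters CCAAT, the element bound by the factor NF-Y, and TAACCCTA, on either strand.
Zfp931 (chr2:178078426-178078675, minus strand): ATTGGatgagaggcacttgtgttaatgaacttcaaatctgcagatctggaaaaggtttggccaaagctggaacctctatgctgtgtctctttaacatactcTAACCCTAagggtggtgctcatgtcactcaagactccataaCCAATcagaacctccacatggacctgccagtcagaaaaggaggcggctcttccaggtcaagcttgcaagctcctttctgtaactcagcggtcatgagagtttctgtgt
Zfp808 (chr13:62129640-62129889, plus strand): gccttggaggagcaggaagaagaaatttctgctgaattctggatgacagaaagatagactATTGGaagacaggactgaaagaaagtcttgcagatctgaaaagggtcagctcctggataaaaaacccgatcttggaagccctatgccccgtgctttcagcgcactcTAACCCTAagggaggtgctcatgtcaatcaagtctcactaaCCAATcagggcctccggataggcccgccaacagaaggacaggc
Zfp932 (chr5:109996260-109996509, plus strand): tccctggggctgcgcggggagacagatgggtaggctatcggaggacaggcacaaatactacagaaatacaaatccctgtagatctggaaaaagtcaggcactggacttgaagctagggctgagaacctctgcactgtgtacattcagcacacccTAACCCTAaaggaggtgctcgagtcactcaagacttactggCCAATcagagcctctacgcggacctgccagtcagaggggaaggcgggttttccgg
Zfp442 (chr2:150451502-150451751, minus strand): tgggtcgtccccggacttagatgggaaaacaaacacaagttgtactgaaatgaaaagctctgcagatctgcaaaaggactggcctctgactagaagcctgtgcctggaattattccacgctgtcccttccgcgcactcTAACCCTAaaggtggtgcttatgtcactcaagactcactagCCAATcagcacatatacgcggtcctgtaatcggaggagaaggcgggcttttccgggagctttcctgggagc
Zfp987 (chr4:146097062-146097311, plus strand): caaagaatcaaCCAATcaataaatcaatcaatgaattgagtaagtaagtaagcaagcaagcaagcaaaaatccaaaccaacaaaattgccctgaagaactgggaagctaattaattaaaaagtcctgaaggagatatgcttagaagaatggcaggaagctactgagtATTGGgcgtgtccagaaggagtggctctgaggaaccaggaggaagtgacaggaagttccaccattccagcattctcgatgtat
Zfp955a (chr17:33255146-33255395, minus strand): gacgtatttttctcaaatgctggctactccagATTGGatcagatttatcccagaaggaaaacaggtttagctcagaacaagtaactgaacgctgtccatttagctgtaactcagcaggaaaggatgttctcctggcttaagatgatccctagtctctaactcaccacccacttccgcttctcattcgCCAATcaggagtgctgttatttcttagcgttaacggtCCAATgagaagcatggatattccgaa
Zfp983 (chr17:21650361-21650610, plus strand): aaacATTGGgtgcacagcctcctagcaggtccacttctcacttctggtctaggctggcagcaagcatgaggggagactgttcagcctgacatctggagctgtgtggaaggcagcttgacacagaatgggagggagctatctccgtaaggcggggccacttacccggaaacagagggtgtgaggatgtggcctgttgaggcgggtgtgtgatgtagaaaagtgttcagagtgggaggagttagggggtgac
Zfp108 (chr7:24254544-24254793, plus strand): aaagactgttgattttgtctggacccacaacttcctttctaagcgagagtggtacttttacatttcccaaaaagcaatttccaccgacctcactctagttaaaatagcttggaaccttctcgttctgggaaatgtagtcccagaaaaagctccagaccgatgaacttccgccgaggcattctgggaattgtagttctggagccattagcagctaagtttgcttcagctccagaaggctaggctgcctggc

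The promoters of the Zfp931, Zfp808, Zfp932 and Zfp442 genes each hold TAACCCTA upstream of a CCAAT, although they lie on 3 chromosomes. RefSeq promoters were found for 83 of the 100 genes. CCAAT was present on either strand in 65 of the 83 (78.3%), against 37.5% of all 27025 genes with a promoter of this length. TAACCCTA was present in 30 of the 83 (36.1%), against 0.596% of all genes. It was in 23 of 23 genes of the Zfp931 group, 3 of 3 of the Zfp808 group, 2 of 2 of the Zfp442 group and 2 of 6 of the Zfp932 group, and in none of the other 14 groups. Many genes of a group, though not all, are related copies, so these are not independent counts. Promoters of the Zfp931 group were 76.5% identical in the median over pairs of genes, those of the Zfp987 group 69.9%, and those of Zfp955a and Zfp955b 100%. Pairs from different groups were 49.6% identical. In all, 14 strings were searched on both strands, TAACCCTA among them because, of 113 strings of 8 letters that over 15 of these promoters held, its share here was highest against its share of all promoters. CCAAT and TAACCCTA were singled out after their counts were seen, so their shares carry no test. The TATA box letters TATAAA were in 3 of 83 promoters, against 14.3% of all genes. A longer string between TAACCCTA and CCAAT in the Zfp931 promoter was in 28 (33.7% against 0.229%) and CCAATCAG, which contains CCAAT, in 36 (43.4% against 4.43%). GGGCGG was in 21.7% against 35.4% and CGCG in 34.9% against 36.3%. A string that follows TAACCCTA in the Zfp808 promoter was in 6 (7.23% against 0.152%). The other strings, CCGGAAGT, TGACATC, TGACGTCA, CATGTGGG and the NRF1 and YY1 motifs, were in 0 to 5 of the 83, against 0.359% to 5.55% of all genes.

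The shared zinc finger features were mostly higher in relapsed tumours. Of the 39, 17 rose and 0 fell at an adjusted p under 0.05 (limma, Benjamini-Hochberg adjustment over all 35065 features), which is 43.6% against 4.89% of all features called in either direction. Over all features 2.44% rose and 2.45% fell. At an unadjusted p under 0.05 there were 26 higher and 3 lower, 29 of 39 in either direction. The same limit was met by 7862 of all 35065 features, and by 149 of 366 features with a single Zfp symbol. The 17 rose by 0.77 to 1.48 on the log2 scale, which is 1.70- to 2.79-fold, with adjusted p-values of 0.0132 to 0.0491. At least a 2-fold rise was reached by 10 of them, against 351 of all features (1%). The median difference, relapsed minus control, was 0.77 over the 39 features and 0.0014 over all features. All 3 relapsed arrays lay above all 3 control arrays in 26 of the 39 (66.7%), against 13.4% of all features, and below them in 4. Features that list the same genes are not independent, and 3 pairs of them differed by less than 0.1 on every array, a limit chosen after their values were seen. With the features of each group averaged, an alternative added after seeing the data, 6 of the 18 groups were called, all 6 higher.

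The calls did not outlast the loss of an array. Without control 1, control 2, control 4, relapsed 2 or relapsed 3 none of the 17 passed, and without relapsed 1 there were 2, the 2 features of the Zfp983 group. The 17 differences then ran from 0.65 to 1.63, and the adjusted p ran from 0.0457 to 0.141. Their sign could not turn, because every relapsed array lay above every control in all 17. All 17 had an unadjusted p under 0.05 in each of the 6 fits, but they had been picked by their p on these same arrays. The number of calls over all features fell as well, from 1716 to between 4 (without control 4) and 359 (without relapsed 1). In a gentler variant added after seeing the data, with features lacking a gene symbol left out of the fit, 20 features were called with all arrays, and 4, 13 and 3 without control 1, 2 and 4, and 11, 2 and 7 without relapsed 1, 2 and 3. Of all features tested in those fits, 8.87% were called with all arrays, 1.91%, 3.48% and 0.769% without control 1, 2 and 4, and 4.39%, 1.80% and 1.47% without relapsed 1, 2 and 3. Only both Zfp983 group features were called in all 6 of those fits.

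**Figure D1:**
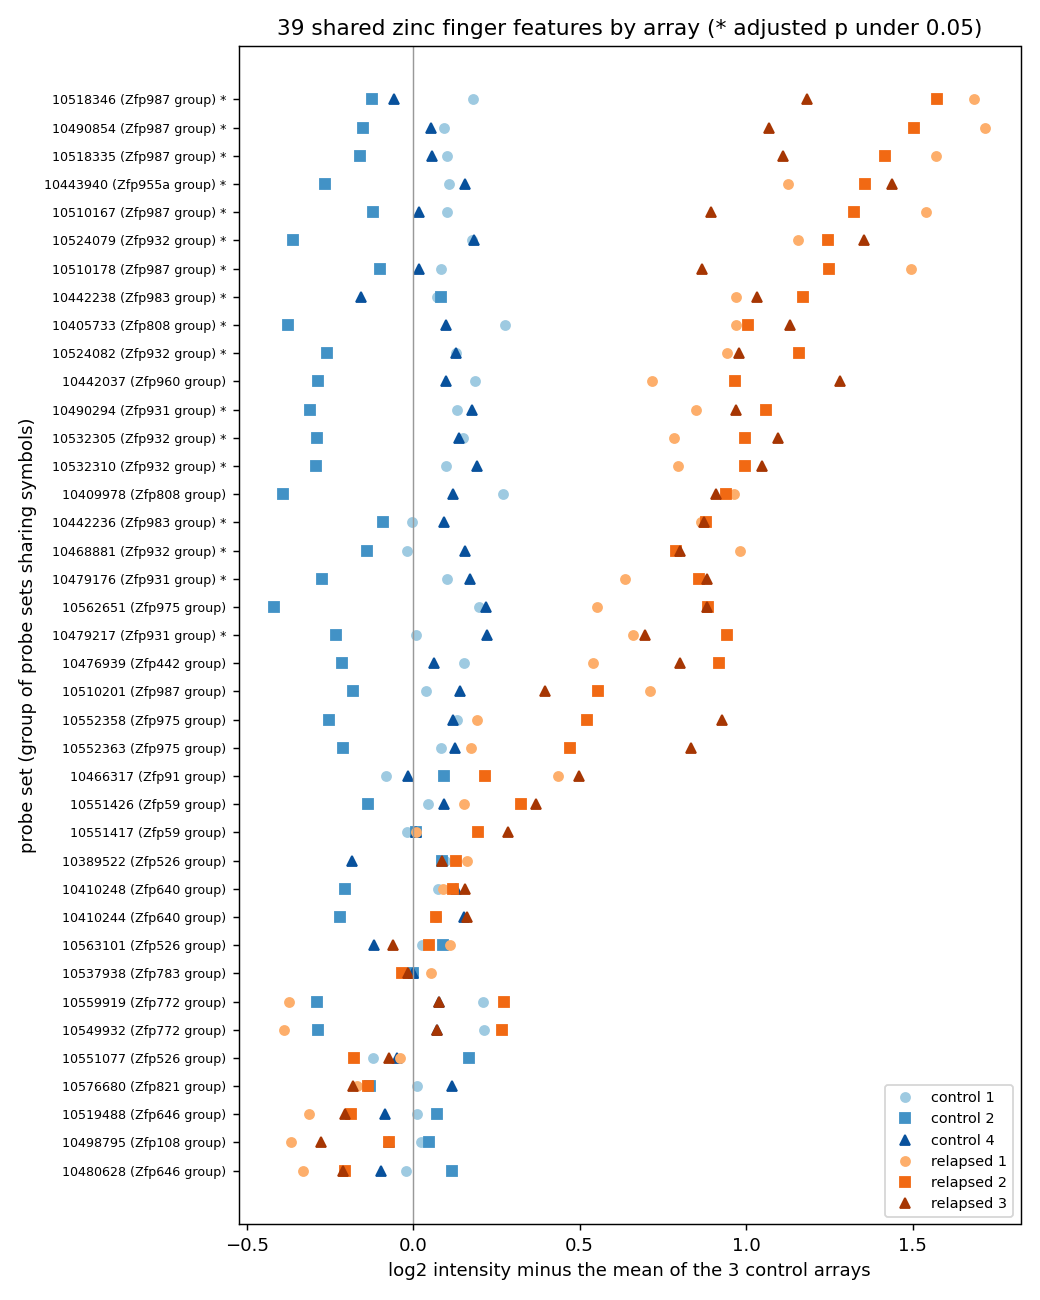
Log2 intensity of each of the 39 shared zinc finger features on each array, minus the mean of the 3 control arrays, ordered by the difference between groups. Blue symbols are control tumours, orange symbols are relapsed tumours, and an asterisk marks an adjusted p under 0.05. The 17 marked features have every relapsed array above every control array, and control 2 is the lowest control in 16 of them.

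The Zfp987 group reads a cluster of KRAB zinc finger genes on chromosome 4, together with Rex2, Gm13212 and the pseudogene Znf41-ps. It held the largest differences: 5 of its 6 features rose, with a median difference of 1.31. Probe set 10518346 (Zfp534, Zfp991, Zfp987, Zfp992, Znf41-ps) read 8.81, 8.50 and 8.57 in control 1, 2 and 4 and 10.31, 10.20 and 9.81 in relapsed 1, 2 and 3. Each relapsed tumour was thus above every control, the lowest by 1.00. The difference was 1.48 ± 0.16 (SE, n = 3 per group; adjusted p = 0.0204), or 2.79-fold. Without 1 array it ran from 1.38 to 1.63.

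Probe set 10490854 lists Zfp990, Zfp534, Zfp984, Zfp991, Zfp987, Zfp985, Gm13212, Zfp992, Zfp982 and Znf41-ps. It read 7.58, 7.34 and 7.55 in the controls and 9.21, 8.99 and 8.56 in the relapsed tumours, a rise of 1.43 ± 0.18 (SE; adjusted p = 0.0251). Probe set 10510167 has the same entry, read 7.62, 7.40 and 7.53 against 9.06, 8.84 and 8.41, and rose by 1.25 ± 0.18 (adjusted p = 0.0293). Both therefore give the same order of arrays. Probe set 10518335 (Zfp534, Zfp981, Zfp980, Zfp991, Zfp987, Zfp985, Zfp992, Znf41-ps) read 8.08, 7.81 and 8.03 against 9.55, 9.39 and 9.08. It rose by 1.37 ± 0.14 (adjusted p = 0.0199). Probe set 10510178, with 13 symbols including Rex2 and Zfp988, read 6.10, 5.92 and 6.03 against 7.51, 7.27 and 6.88, the lowest level among the features that rose, and rose by 1.20 ± 0.17 (adjusted p = 0.0288).

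The sixth feature, 10510201 (Rex2, Zfp981, Zfp980, Zfp600, Zfp987, Zfp979), was dimmer. It read 4.64, 4.42 and 4.74 in the controls and 5.31, 5.15 and 4.99 in the relapsed tumours. The groups did not overlap, and the difference of 0.56 ± 0.12 did not pass (adjusted p = 0.0685). All 6 features of the group were highest in relapsed 1, then relapsed 2, then relapsed 3.

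The Zfp932 group was called in all of its 5 features, with a median difference of 0.96. Zfp932 and its paralog Gm15446 are known as repressors of endogenous retroviruses, and Arid4b, which some entries also list, is a chromatin regulator without zinc fingers. Probe set 10524079 (Gm15446, Zfp932) read 8.59, 8.05 and 8.59 in the controls and 9.56, 9.66 and 9.76 in the relapsed tumours. It rose by 1.25 ± 0.17 (SE; adjusted p = 0.0272). Probe set 10524082, with the same entry, rose by 1.03 ± 0.13 (adjusted p = 0.0259), from 7.83, 7.44 and 7.83 to 8.65, 8.86 and 8.68. Control 2 was the lowest array in both.

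The other 3 features of the group list Zfp950 and Arid4b. Probe set 10532305 (4930522L14Rik, Zfp950, A630089N07Rik, Arid4b, Zfp932) read 10.05, 9.62 and 10.04 in the controls and 10.69, 10.90 and 11.00 in the relapsed tumours, a rise of 0.96 ± 0.15 (adjusted p = 0.0366). Probe set 10532310 has the same entry, differed from it by at most 0.053 on any array, and rose by 0.95 ± 0.15 (adjusted p = 0.0357). They are not independent measurements. Probe set 10468881 (Zfp950, Arid4b) read 8.34, 8.22 and 8.51 against 9.34, 9.15 and 9.16 and rose by 0.86 ± 0.10 (adjusted p = 0.0235). A probe set for Arid4b alone differed by 0.32 ± 0.24 with overlapping groups (adjusted p = 0.505), and 1 for Zfp950 alone by 0.51 (adjusted p = 0.058).

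The Zfp931 group reads the cluster on chromosome 2 with 25 symbols, many of them predicted genes of the Gm series. All 3 of its features rose, with a median difference of 0.79. Probe set 10490294, with 18 symbols (Gm4724, Gm14410, Gm14305, Gm14308, Gm2026, Gm14434, Gm14326, Gm14391, Gm14393, Zfp970, Zfp971, Gm6710, Gm14322, Gm14403, Zfp931, Gm14325, Gm14440, Gm14327), read 9.58, 9.14 and 9.63 in the controls and 10.30, 10.51 and 10.42 in the relapsed tumours, a rise of 0.96 ± 0.15 (adjusted p = 0.0350). Probe set 10479176, which has the same values as 10490250, was brighter, at 11.26, 10.88 and 11.33 against 11.80, 12.02 and 12.04. It rose by 0.79 ± 0.14 (adjusted p = 0.0462). Probe set 10479217, the entry with Zfp965, Zfp966, Zfp967 and Zfp973, read 8.51, 8.27 and 8.72 against 9.16, 9.45 and 9.20. It rose by 0.77 ± 0.14 (adjusted p = 0.0491), the smallest of the 17 rises. Relapsed 1 was the lowest relapsed tumour in all 3, where it was the highest in the Zfp987 group.

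The Zfp955a group is 1 feature, 10443940 (Zfp955b, Zfp955a), a pair of genes on chromosome 17 with the same promoter sequence. It read 8.24, 7.87 and 8.29 in the controls and 9.25, 9.49 and 9.57 in the relapsed tumours, a rise of 1.31 ± 0.15 (adjusted p = 0.0210). The Zfp983 group, also on chromosome 17, had the smallest errors of the features that rose. Probe set 10442236 (Gm10509, Zfp983) read 7.44, 7.36 and 7.54 against 8.31, 8.33 and 8.32 and rose by 0.87 ± 0.07 (adjusted p = 0.0132). The 3 relapsed tumours were nearly equal there, with an SD of 0.0080 against 0.091 in the controls. Probe set 10442238 (Gm10509, Zfp983, Zfp51) rose by 1.06 ± 0.10 (adjusted p = 0.0175), from 7.07, 7.08 and 6.84 to 7.97, 8.17 and 8.03.

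The Zfp808 group on chromosome 13 had 1 called feature of 2. Probe set 10405733 (Zfp808, Gm5141, Zfp934) read 7.33, 6.67 and 7.15 in the controls and 8.02, 8.05 and 8.18 in the relapsed tumours, a rise of 1.04 ± 0.18 (adjusted p = 0.0416). Probe set 10409978, which also lists Zfp935, read 7.14, 6.48 and 6.99 in the controls and 7.83, 7.81 and 7.78 in the relapsed tumours. It differed by 0.94 ± 0.18 and missed the threshold (adjusted p = 0.0505). The controls spread more widely than the relapsed tumours in both, with control 2 lowest.

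**Figure D2:**
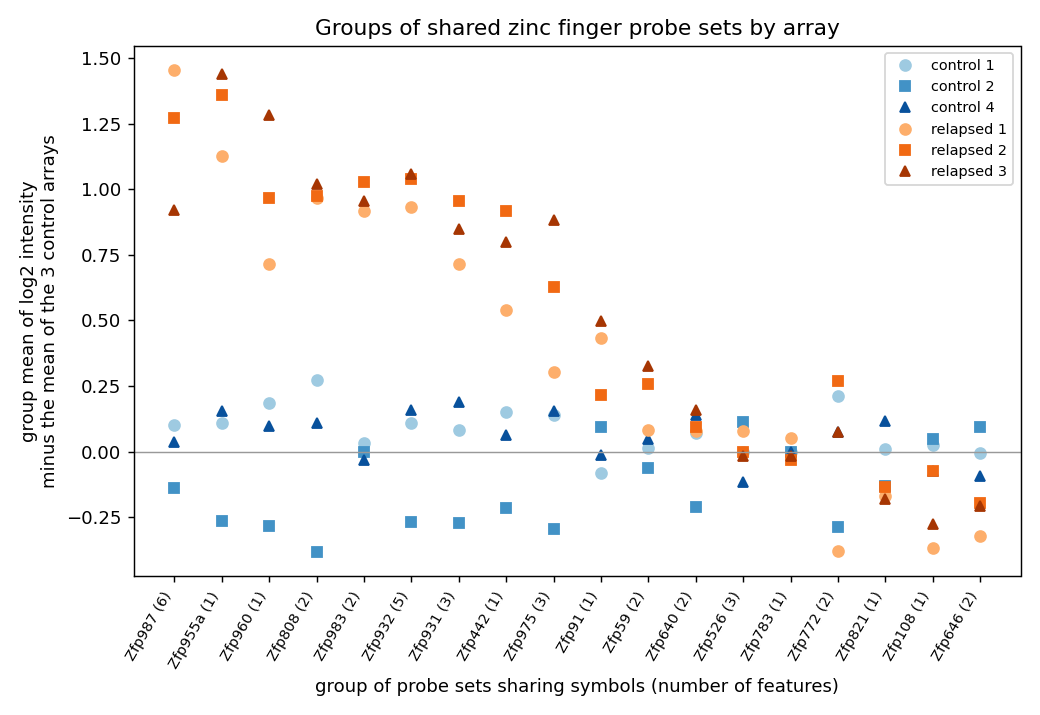
Mean log2 intensity of the features in each of the 18 groups on each array, minus the mean of the 3 control arrays, with the number of features in parentheses. Relapsed tumours reach 0.92 to 1.45 in the Zfp987 group, and overlap the controls in the Zfp640, Zfp526, Zfp783 and Zfp772 groups.

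The other 22 features did not pass, with differences of -0.25 to 0.99. Of these, 15 had the higher mean and 7 the lower mean in relapsed tumours. Groups did not overlap in 9 of the former and 4 of the latter, and overlapped in 9. Over all features 13.4% had every relapsed array above every control and 13.1% had it below, and the 4 are 10.3% of the 39. The nearest to the threshold, beside 10409978, were the Zfp442 group (10476939, Zfp442, Zfp937, 3300002I08Rik) at 0.75 ± 0.14 (adjusted p = 0.0503) and the Zfp960 group (10442037, Gm38396, Zfp960, BC002059, Zfp97) at 0.99 ± 0.19 (adjusted p = 0.0536). The former read 8.51, 8.14 and 8.42 against 8.89, 9.27 and 9.15 and the latter 8.47, 7.997 and 8.38 against 8.998, 9.25 and 9.56, both with every relapsed tumour above every control. The 3 features of the Zfp975 group on chromosome 7 differed by 0.49, 0.55 and 0.77 (adjusted p = 0.215, 0.221 and 0.104). Every relapsed array lay above every control, by 0.047, 0.059 and 0.33 at the least. The features at 0.49 and 0.55 were dim, with control means of 5.02 and 5.32 and relapsed means of 5.51 and 5.86. The median of features with no listed gene was 5.69.

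Not every cluster of duplicated zinc finger genes had a called rise. Both features of the Zfp59 group on chromosome 7, which list 7 and 8 symbols, differed by 0.16 and 0.28 (adjusted p = 0.340 and 0.166). The former had overlapping groups. The latter had every relapsed array above every control, with a 95% interval of 0.044 to 0.52. Probe set 10498795 (Zfp114, Zfp109, Zfp111, Zfp108, Zfp94, Zfp93), from another chromosome 7 cluster, read 9.83, 9.86 and 9.74 in the controls and 9.44, 9.74 and 9.53 in the relapsed tumours. Its groups were apart by less than 0.001, with a difference of -0.24 ± 0.09 (95% interval -0.47 to -0.0016; adjusted p = 0.221). The CCAAT letters were in none of the 5 promoters found for that group and in 2 of 8 for the Zfp59 group. Other groups without a call had them in every promoter: Zfp975 (4 of 4), Zfp960 (3 of 3), Zfp442 and Zfp772 (2 of 2 each), and Zfp640 and Zfp646 (1 of 1 each). The Zfp91 group had them in 0 of 3. The same letters were in 46 of 47 promoters of the 6 groups with a called rise and in 19 of 36 of the other groups, a split made from the calls.

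Some entries pair a zinc finger gene with a gene of another kind. Probe sets 10563101 (Rpl13a, Zfp526) and 10389522 (Gm11478, Rpl13a, Zfp526) list Rpl13a, a protein of the large ribosomal subunit, and are the brightest 2, at means of 13.0 and 11.8. The first read 13.04, 13.10 and 12.90 against 13.12, 13.06 and 12.95 and the second 11.88, 11.87 and 11.60 against 11.95, 11.91 and 11.87, with overlapping groups. They differed by 0.03 ± 0.08 and 0.13 ± 0.09 (adjusted p = 0.859 and 0.502), and the first turned to -0.04 after median centring of the arrays. Probe set 10551077 (Zfp526, 9130221H12Rik) differed by -0.10 ± 0.10 (adjusted p = 0.619). Probe sets 10519488 and 10480628 (both Zfp646, Tubb4b) list Tubb4b, a beta-tubulin. They read 10.35, 10.41 and 10.25, and 10.36, 10.50 and 10.29, in the controls, and 10.02, 10.15 and 10.13, and 10.05, 10.18 and 10.17, in the relapsed tumours. They were lower by 0.23 and 0.25 with groups apart, and neither passed (adjusted p = 0.136 and 0.156). The feature listing Zfp91 with Cntf, ciliary neurotrophic factor, differed by 0.38 (adjusted p = 0.094). The Zfp640, Zfp783, Zfp772 and Zfp821 groups differed by -0.16 to 0.12, and the Zfp821 feature and both Zfp640 features were at levels of 3.27 to 3.38.

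Zinc finger genes read by probe sets of their own moved both ways. Of 366 features with 1 symbol starting with Zfp, 26 rose and 11 fell (10.1% called), with a median difference of 0.0049. Those are 7.1% and 3.01%, against 2.44% and 2.45% of all features, so that the calls leaned upward. Of 1414 features with several symbols and none starting with Zfp, 47 rose and 7 fell (3.82% called), with a median of 0.054. Those are 3.32% and 0.495%, which also leaned upward. All 3 relapsed arrays lay above all 3 controls in 27.9% of the 366 and below them in 21.6%. In the 1414 these shares were 17.1% and 5.59%. The largest rises among the 366 were Zfp52 (1.99 ± 0.21), Zfp991 (1.65 ± 0.30), Zfp985 (1.13 ± 0.14) and Zfp948 (1.08 ± 0.10), and the largest falls were Zfp770 (-0.86), Zfp334 (-0.79), Zfp609 (-0.79) and Zfp365 (-0.70). Zfp52 read 6.53, 6.24 and 6.35 in the controls and 7.97, 8.38 and 8.73 in the relapsed tumours. The Zfp985 feature was dim, at means of 4.26 in the controls and 5.39 in the relapsed tumours.

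**Figure D3:**
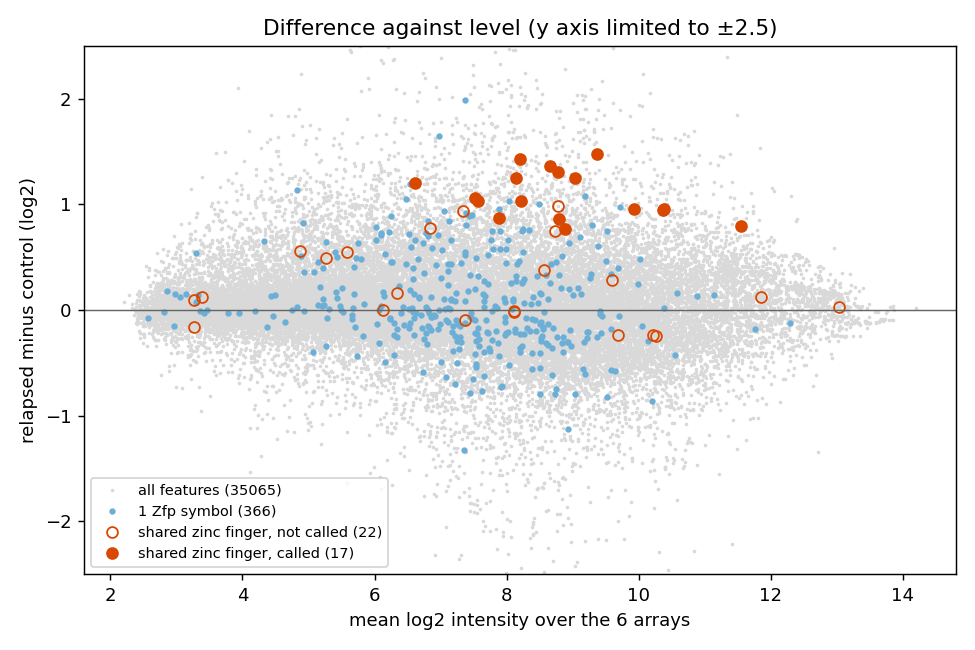
Difference between relapsed and control means (log2) against the mean level over the 6 arrays, for all 35065 features, the 366 with a single Zfp symbol and the 39 shared zinc finger features, filled where called. The filled points lie at levels of 6.62 to 11.6 and differences of 0.77 to 1.48, and the vertical axis leaves out features beyond 2.5.

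Where genes of the 18 groups also had other probe sets in the table, those were read as well. Of 42 features with 1 of these symbols alone, 7 rose and 1 fell, with a median difference of 0.15. Those that rose were Zfp991, 2 for Zfp985, Gm14403, Zfp971, Zfp983 and BC002059. Zfp991 and both Zfp985 features belong to the Zfp987 group, whose remaining Zfp985 feature and Zfp979, Zfp980, Zfp982 and Zfp600 features differed by -0.15 to 0.18. These remaining features were dim, with control and relapsed means of 2.77 to 3.40, below the median of features with no listed gene (5.69). Both Zfp985 features that rose lay below it too, with control means of 3.03 and 4.26 and relapsed means of 3.56 and 5.39. The 1 that fell was Zfp114 (-0.40 ± 0.07; adjusted p = 0.0417), which is listed in the Zfp108 group. It was also below 5.69, at a control mean of 5.27 and a relapsed mean of 4.87. Of 8 features with several symbols, at least 1 of them from these groups but none starting with Zfp, 3 rose: 2 from the Zfp931 group, at 0.86 and 0.96, and 1 that lists Snord34 with Rpl13a, at 0.82.

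Neighbours of the listed genes were also compared, by a window of 10 protein-coding genes in RefSeq order chosen after the values were seen. Of 51 single-symbol Zfp features of other genes within it, 6 rose and 1 fell (median 0.16), and of 275 outside it 15 rose and 9 fell (median -0.021). Near the 6 groups with a called rise, again a split made from the calls, 6 of 24 rose and 0 fell (median 0.51). Near the other groups, 0 of 27 rose and 1 fell (median -0.17). The 6 were Zfp52, Zfp948, Zfp943, Zfp942, Zfp944 and Zfp101, all on chromosome 17. Of the groups with a called rise, only the Zfp955a and Zfp983 groups lie there, so none of these rises was near the others. Over the genome, 2.81% of 6610 single-gene features with CCAAT rose, against 2.78% of 10333 without, and 2 of 74 with TAACCCTA against 471 of 16869 without. With CCAATCAG 48 of 930 rose (5.16% against 2.65% without), and with the longer string of the Zfp931 promoter 3 of 16 (18.75% against 2.78%). Falls were also more frequent with CCAATCAG, at 45 of 930 (4.84% against 3.42% without), and the median difference was -0.015 with it and -0.017 without. With the longer string 0 of 16 fell. That string was in 23 of 23 genes of the Zfp931 group, whose Gm14403 and Zfp971 features rose, so its 3 rises include genes of that group. Over the 14 strings the share that rose was 0.901% to 18.75% with the string. Genes of the 18 groups with a probe set of their own were not left out of these counts, none was tested, and the strings were partly chosen from these promoters.

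Corepressors and silencing factors that work with KRAB zinc finger proteins were given by a list of 27 genes, of which 25 were measured. Of these, 1 rose and 3 fell. Zfp809, a zinc finger protein that silences murine leukaemia virus, rose by 0.69 ± 0.11 (adjusted p = 0.0330). Dnmt1, the maintenance DNA methyltransferase, fell by 0.59 (adjusted p = 0.0207), Uhrf1, its recruiting partner, fell by 0.48 (adjusted p = 0.0491), and Cbx5, heterochromatin protein HP1 alpha, fell by 0.28 (adjusted p = 0.0480). Trim28 read 11.07, 11.32 and 10.95 in the controls and 10.39, 10.48 and 10.61 in the relapsed tumours, lower in all 3, and its difference of -0.62 ± 0.12 missed the threshold (adjusted p = 0.0524). Setdb1 overlapped between groups, at -0.13 ± 0.10. With 1 array left out in turn, 0 or 1 of the list were called.

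Array medians ran from 6.58 to 6.62 in the controls and 6.67 to 6.68 in the relapsed tumours. After centring of each array at its own median, 36.3% of all calls were higher in relapsed tumours, against 49.9% as deposited, while 19 shared zinc finger features rose and 0 fell. Levels of cell type markers differed too. Macrophage markers rose in 6 of 12 (mean level 9.21 to 9.66 in controls, 10.7 to 11.2 in relapsed tumours), fibroblast markers rose in 5 of 10 (9.01 to 9.50 against 10.3 to 11.2), and glial tumour cell markers fell in 7 of 12 (10.3 to 11.0 against 9.02 to 9.21). No marker passed for endothelium (8 genes; 8.25 to 8.49 against 7.89 to 8.18) or T and B cells (6 genes; 5.62 to 5.76 against 5.51 to 6.17). Single tumours stood apart in skeletal muscle markers (8 genes; control 2 at 9.35, the others 6.95 to 7.52), adipocyte markers (6 genes; relapsed 1 at 9.57, the others 5.96 to 6.46) and keratinocyte markers (8 genes; relapsed 3 at 7.21, the others 5.34 to 5.57). Of 3 genes of the Y chromosome none passed (8.11 to 8.86 against 8.12 to 9.10). Control 2 was the lowest control in 29 of the 39 shared features, and without it their median difference was 0.65. The part of cell makeup in the rises was not tested, and in whole tumours more cells of a type and more RNA per cell cannot be told apart.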

How the data were processed

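RNA of 6 tumours was measured on Affymetrix arrays. The authors deposited 1 log2 intensity per probe set and array, and the scale was read from the values (1.93 to 14.2). The submitters' processing notes name affy. How background, normalization and summarization were handled, and the version, is not given in the sources used here. Scaling arrays to like distributions hides any change shared by most transcripts.

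Groups were taken from the sample descriptions. Probe sets with identical values on all arrays were collapsed (235 sets holding 726 probe sets). All 35065 features were fitted with limma 3.58.1 in R 4.3.3 (lmFit and eBayes, 4 residual and 1.48 prior degrees of freedom), two-sided, with Benjamini-Hochberg adjustment over all of them. "Rose" and "fell" mean an adjusted p under 0.05. No filter on dim values was used, so all 39 features were tested, and 5 of them were below the median of features with no listed gene (5.69) in both groups. Errors are SE from limma, or SD over 3 arrays where named. Precision is limited by the number of arrays. The script was tested on simulated data.

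The probe sets, gene lists and markers were chosen with earlier results of these data known, so no p is adjusted over a list alone. For list genes the brightest probe set with that 1 symbol was used. Named were the 12 largest rises, the 3 lower features with the smallest p, the 5 brightest, and features sharing a Zfp symbol with these. Single-symbol genes were the 4 largest called rises and falls, and of the corepressors Trim28, Setdb1 and those called. Other features named were chosen after their values were seen. Promoter identity came from global alignment (Biopython 1.88; match 1, mismatch -1, gap opening -2, extension -0.5). Alternatives were a filter on the dimmer 50%, quantile normalization, median centring, no collapsing, only features with a gene symbol, an intensity trend with a robust prior, a 2-fold limit, the replicate number as a block and leaving out each array.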

Additional observations from a re-analysis of the deposited data

How the results depend on the processing

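The count of shared zinc finger features that rose was 18 of 40 probe sets without collapsing, 19 of 30 without the dimmer 50%, 19 with quantile normalization or median centring, 20 with only gene-symbol features and 15 with an intensity trend and robust prior, with 0 lower in each. The share of all features called moved too. It was 4.87% without collapsing, 15.3% without the dimmer 50%, 5.77% with quantile normalization and 6.2% with median centring. It was 8.87% with only gene-symbol features and 3.76% with the trend. Asking also for 2-fold left 10 (652 of all features), and averaging features of a group, added after seeing the data, left 6 of 18 groups, 6 higher, with a median difference of 0.49. Without the dimmer 50%, 2681 features were called (1288 higher, 1393 lower), 18 single-symbol Zfp features fell, and several-symbol features without Zfp came to 104 (85 and 19). With only gene-symbol features those were 93 (77 and 16), and single-symbol Zfp calls 57 (18 lower). Median centring gave 1385 lower calls, 21 and 17 lower in those classes, and quantile normalization 18 and 17. The trend gave 23 single-symbol Zfp calls (5 lower), 2 lower several-symbol calls and 2 corepressor calls. The difference of 10563101 (0.03) turned to -0.044 with median centring, -0.026 without control 4 and -0.0063 without relapsed 1, and was 0.080 without relapsed 3. Under the trend 10479176 and 10479217 were not called, and 10479176 not with quantile normalization. The cause was not tested.

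Leaving out 1 array gave 0 to 2 called shared features (0 lower), median 0.65 to 0.88, 4 to 359 calls in all (2 to 166 higher, 2 to 193 lower), 0 to 8 single-symbol Zfp calls (0 to 6 higher, 0 to 2 lower), 0 to 8 several-symbol calls without Zfp (0 to 8 higher, 0 to 5 lower) and 0 to 1 corepressor calls. With only gene-symbol features, added after seeing the data, it gave 4, 13 and 3 without control 1, 2 and 4 and 11, 2 and 7 without relapsed 1, 2 and 3, with 443, 805, 178, 1016, 416 and 341 calls in all (0.769% to 4.39%). A group left with 2 arrays shares the spread of the other.

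Numbers 1 and 2 occur in both groups. Deviations of same-numbered tumours correlated at -0.26 and -0.21, and of crossed ones at 0.16 and 0.31. The labels name no pairing, and so few correlations cannot tell whether same-numbered tumours share more than a number. With the replicate number as a block, which leaves 1 residual degree of freedom, 0 features were called in every class and in all, and the median difference of the shared features was 0.83. At an unadjusted p under 0.05 there were 18 of the 39 and 3350 of all features.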
